A study of Homo sapiens with 8 samples.

Results

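The genes described here are 32 genes of galactose use, glycolysis and sugar or lactate transport, chosen by name from known pathways, among 15982 genes counted by RNA-seq. All 32 were in the count table and all 32 passed the filter on low counts. Of these, 8 belong to galactose use, 9 to the upper and 6 to the lower part of glycolysis, 3 encode enzymes that set fructose 2,6-bisphosphate, and 2 each encode hexose transporters, lactate dehydrogenase subunits and lactate transporters. The cells were 143BTK-, a single human osteosarcoma line that is deficient in thymidine kinase. One group of 4 cultures received a synthetic mimic of the microRNA hsa-miR-101-3p (miR-101 below). The other 4 cultures received a commercial negative control mimic (Negative Control #1). Both groups grew without glucose, in medium with 10 mM galactose, 5% dialysed serum, uridine and a glutamine source, were given 80 pmol of mimic at the start and again at 48 h, and were harvested at 120 h. The mimics were delivered by lipid transfection, and the level of the miRNA itself was not analysed here. The question addressed is how these transcripts differ between the mimics.

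Cells bring in hexoses through facilitative transporters of the SLC2A (GLUT) family. Galactose enters metabolism by the Leloir pathway, in which galactokinase makes galactose 1-phosphate, GALT exchanges it with UDP-glucose, and phosphoglucomutase carries the released glucose 1-phosphate to glucose 6-phosphate. From there the sugar follows glycolysis to pyruvate and, through lactate dehydrogenase and the SLC16A transporters, to exported lactate. Galactose feeds glycolysis slowly, so cells grown in it rely on mitochondrial respiration for much of their ATP, which is why such medium is used in studies of mitochondria. A miRNA pairs through its seed, bases 2 to 8, with matching sites that lie mostly in the 3' UTR of mRNAs.

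The mature miRNA is shown first, because its seed defines the sites searched in the 32 genes. The sequence is the RefSeq entry for MIR101-2 on the plus strand of GRCh38.p14, chr9:4850345-4850365, with the seed in capitals.
hsa-miR-101-3p: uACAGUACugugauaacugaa

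Matches to this seed lay in 6 of the 32 genes and in neither of those that rose with the mimic. A match was the 8mer GTACTGTA, the 7mer-m8 GTACTGT or the 7mer-A1 TACTGTA in the longest annotated 3' UTR of a gene (sense strand, GENCODE 29, GRCh38; an 8mer contains both 7mers and was counted once). No 8mer was found in the 32 UTRs, and the 6 genes (18.8%) held a 7mer, against 23.9% of 12188 tested genes that held a 7mer or 8mer. The 6 UTR matches are printed 5' to 3' with flanking bases, the match in capitals.
UGP2, 7mer-A1, chr2:63891321-63891327, plus strand: tttactatgtTACTGTAccc
PGM2, 7mer-m8, chr4:37862907-37862913, plus strand: gtgtcaaactGTACTGTgga
GPI, 7mer-m8, chr19:34402134-34402140, plus strand: gtagatcagtGTACTGTtgt
PGK1, 7mer-A1, chrX:78127784-78127790, plus strand: ttttagttaaTACTGTAccc
SLC2A1, 7mer-A1, chr1:42925837-42925843, minus strand: gtgaagtaaaTACTGTAcct
PFKFB2, 7mer-A1, chr1:207077621-207077627, plus strand: aagagagttcTACTGTAgat

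The median log2 fold change was 0.012 for the 6 genes with a match and -0.017 for the other members, and -0.064 for all tested genes with a match against -0.011 for those without. The members' UTRs were also shorter, with a median of 907.5 bases against 1465.5 for all tested genes. A match is a description of the letters and not evidence of a site in use.

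Libraries held 17603054 to 20160267 counted reads. EZH2, a histone methyltransferase that is a described target of miR-101, was measured as a check of the mimic. It stood at 25.9, 26.7, 30.3 and 29.3 CPM (counts scaled to library size) with miR-101 and at 46.0, 46.7, 51.3 and 38.9 CPM in the negative control (log2 fold change -0.70 ± 0.114 SE, edgeR adjusted p = 0.00561). Levels of osteoblast and mesenchymal markers varied widely. CDH11 was between 319.7 and 359.7 CPM with miR-101 and between 225.6 and 356.3 CPM in the control. VIM and SPARC averaged 668.5 and 564 CPM in the control, against 28.7, 24.1, 13.4 and 6.29 CPM for SPP1, TWIST1, RUNX2 and COL1A1. Of 12 listed genes 8 were in the table (SP7, ALPL, COL1A2 and BGLAP were not). The 8 were 7 osteoblast or mesenchymal markers and TK1, the thymidine kinase gene listed for this line. These 8 summed to 1345 to 2536 CPM with miR-101 and 1235 to 1904 CPM in the control, and 1 of them, RUNX2, an osteoblast transcription factor, rose (log2 fold change 0.93, edgeR adjusted p = 0.0269). Of 6 epithelial markers 3 were measured, summing to 359.6 to 625.1 CPM with miR-101 and 288.5 to 375.1 CPM in the control, and KRT8 rose (0.93, edgeR adjusted p = 0.0114). With the replicate block SPP1, COL1A1 and SPARC were also called higher among the first markers (log2 fold change 2.35, 1.15 and 0.66, edgeR adjusted p = 0.00176, 0.00467 and 0.00977), as was EPCAM among the epithelial ones (0.72, 0.0115). The 1 leukocyte and 2 endothelial markers measured summed to at most 3.55 and 10.4 CPM in any library. The part of these markers in the results below was not tested. Replicates 1 and 2 lay closer together within each group than any other libraries, and negative control replicate 4 stood apart in several of the genes described.

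With the miR-101 mimic 2 of the 32 genes changed, and both rose. The hexose transporter SLC2A3 was 3.97-fold higher and UGDH, the enzyme that turns UDP-glucose into UDP-glucuronate, was 1.29-fold higher. The other 30 genes, among them every measured enzyme between hexokinase and lactate dehydrogenase, had log2 fold changes between -0.43 and 0.34 and were not called. A gene was called at an adjusted p under 0.05 in edgeR's quasi-likelihood test with Benjamini-Hochberg adjustment over 15905 genes, which called 6.62% of all tested genes, 3.3% higher and 3.32% lower, while DESeq2 and limma-voom also called these 2 genes and no other member, and 6 of the 32 had an unadjusted p under 0.05 against 22.3% of all tested genes. The groups did not overlap for SLC2A3, UGDH and UGP2, 3 of the 32, against 15.1% of all tested genes. Blocking on the replicate number called the same pair of genes, against 10.5% of all tested genes, 5.55% higher and 4.99% lower. The median log2 fold change was -0.017 over the 32 genes and -0.005 over all tested genes, with 17 of the 32 negative and 50.7% of all tested genes negative.

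**Figure D1:**
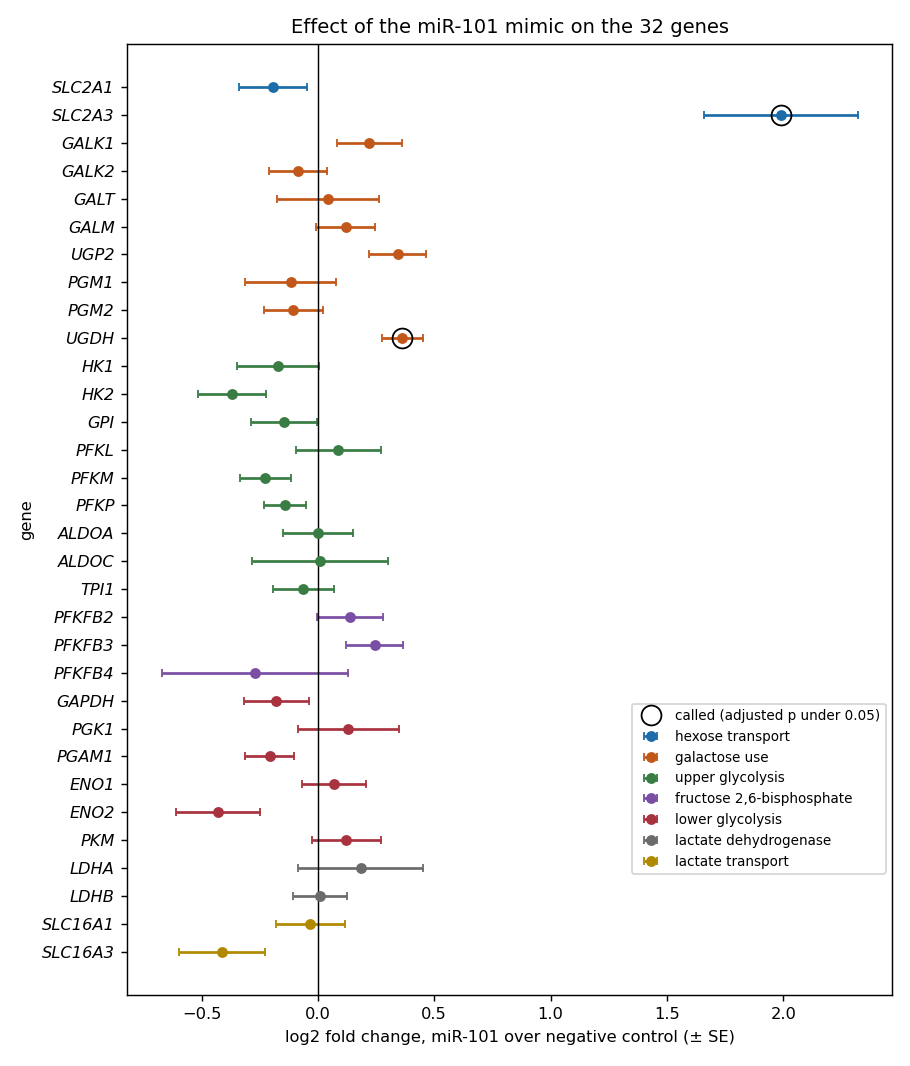
Log2 fold change of each of the 32 genes, miR-101 over negative control, as a point with its standard error, coloured by role, with the 2 called genes ringed. SLC2A3 stands at 1.99, while the other genes lie between -0.43 and 0.36.

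SLC2A3 encodes GLUT3, a hexose transporter of high affinity best known from neurons. Its gene lies on the minus strand of chr12:7919230-7936275 (GRCh38). SLC2A3 was at 437.9, 468.7, 497.6 and 285.3 CPM in miR-101 replicates 1 to 4 and at 156.4, 137.5, 85.3 and 46.3 CPM in negative control replicates 1 to 4. The lowest miR-101 library was thus above the highest control library, and both groups were lowest in replicate 4. It averaged 422.4 ± 94.6 CPM in miR-101 libraries against 106.4 ± 50.1 CPM in control libraries (SD, n = 4 in either group), with a log2 fold change of 1.99 ± 0.331 SE and an edgeR adjusted p of 0.00635. SLC2A3 was higher in 4 of 4 same-numbered pairs, by 1.49, 1.77, 2.54 and 2.62 on the log2 scale. Leaving out any 1 library kept the call, with log2 fold changes from 1.74 (without negative control replicate 4) to 2.24. In replicates 3 and 4 alone its log2 fold change was 2.57 with an edgeR adjusted p of 0.0999. No 7mer or 8mer match to the miR-101-3p seed lay in its 2183-base 3' UTR.

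Some reads of SLC2A3 may belong to near-identical copies. GENCODE 29 names 3 SLC2A3 pseudogenes, of which SLC2A3P2 was in the count table. SLC2A3P2 took between 0.791% and 1.11% of the summed reads of both with miR-101 and between 0.616% and 1.21% in the control. It stood at 2.76 to 4.95 CPM with miR-101 and at 0.287 to 1.92 CPM in the control, and rose with a log2 fold change of 1.91 (edgeR adjusted p = 0.019). These levels rest on 51 to 99 reads with miR-101 and 6 to 35 in the control. Its share of the reads overlapped between groups, and whether its rise is separate from that of SLC2A3 was not tested. How reads of the gene and its copies were divided is not given in the sources used here. Related coding genes were not checked for shared reads, and SLC2A14, on the fixed list of hexose transporters, was not in the count table.

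SLC2A1 encodes GLUT1, the hexose transporter of most proliferating cells. It was at 140.2, 140.7, 220.2 and 177.5 CPM with miR-101 and at 181.9, 191.4, 202.1 and 200.4 CPM in the control. The miR-101 libraries spread on both sides of the controls, which were close together (log2 fold change -0.19 ± 0.145 SE, edgeR adjusted p = 0.47). Scaled to the exon length of each gene, SLC2A3 was 2.40, 2.55, 1.73 and 1.23 times the level of SLC2A1 in miR-101 replicates 1 to 4 and 0.66, 0.551, 0.324 and 0.177 times in control replicates 1 to 4. SLC2A3 was thus the more abundant of the 2 transporters in every miR-101 library and the less abundant in every control library. The difference in this log2 ratio was 2.32 (exact permutation test, two-sided, p = 0.0286, the smallest that 4 libraries against 4 can give), with an exact p of 0.157 after Benjamini-Hochberg adjustment over 11 ratios of related genes. Of 9 further hexose and sugar phosphate transporters of a fixed list, SLC37A2, a sugar phosphate exchanger of the endoplasmic reticulum, was the 1 called, against 6.62% of all tested genes. It averaged 7.94 ± 1.95 CPM in miR-101 libraries against 20.1 ± 4.50 CPM in control libraries (log2 fold change -1.34 ± 0.212 SE, edgeR adjusted p = 0.00515).

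**Figure D2:**
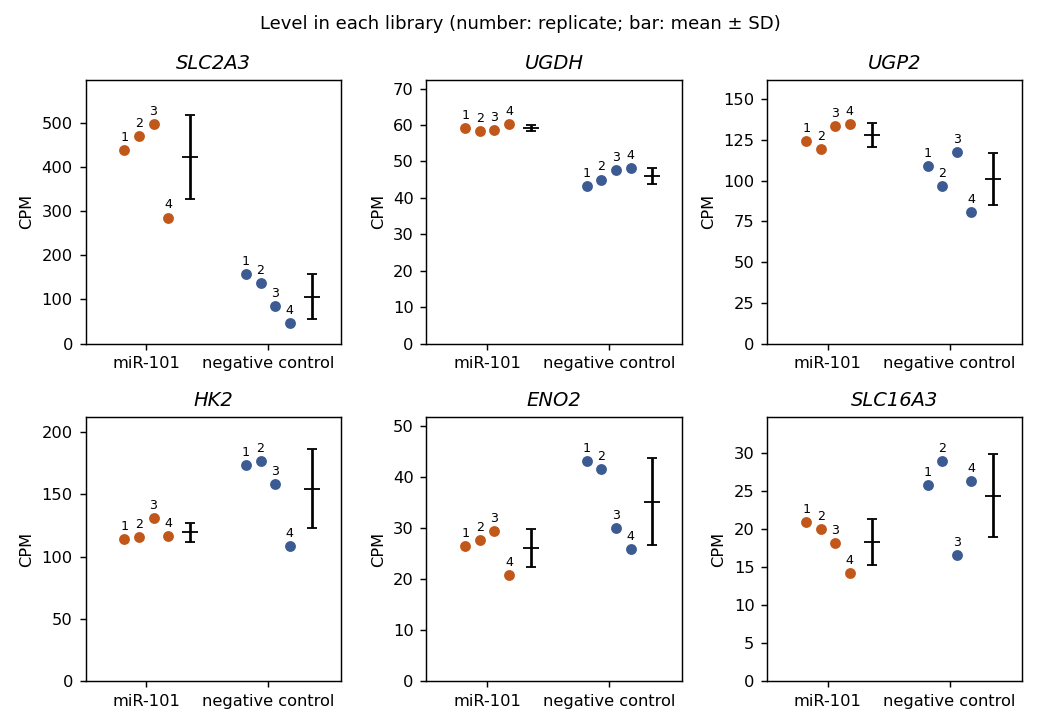
Level (CPM, linear axis from 0) in each library of the 6 genes with an unadjusted p under 0.05, miR-101 left and negative control right, numbered by replicate, with the mean and SD as a black bar. The groups are apart for SLC2A3, UGDH and UGP2 and overlap for HK2, ENO2 and SLC16A3.

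Of the 8 genes of galactose use, UGDH rose and none fell, against 3.3% and 3.32% of all tested genes. UGDH lies at the side of the Leloir pathway, drawing UDP-glucose off to UDP-glucuronate, the donor for glucuronidation and for glycosaminoglycans such as hyaluronan. UGDH was at 59.3, 58.4, 58.7 and 60.4 CPM with miR-101 and at 43.3, 45.0, 47.6 and 48.1 CPM in the control. The miR-101 libraries lay within 2 CPM of each other and all above the controls (log2 fold change 0.36 ± 0.0874 SE, edgeR adjusted p = 0.0328), and the gene was higher in 4 of 4 same-numbered pairs. At 1105 to 1199 counts, the miR-101 libraries lay closer together than counting error alone would usually leave them. Their closeness is therefore not a measure of precision. The call was close to the threshold. It was lost without any 1 of the 4 miR-101 libraries or of negative control replicates 1 and 2 (edgeR adjusted p up to 0.109), with values between 0.33 and 0.37 there, and was kept without negative control replicate 3 or 4. It was also lost when libraries were scaled by their totals alone (edgeR adjusted p = 0.0605) and when replicates 1 and 2 were summed (0.246). UGDH-AS1, on the opposite strand of UGDH (chr4:39498755-39528311), had 0.940 to 1.99 CPM over all libraries; without strand information, reads of the overlap cannot be told apart.

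UGP2, which makes UDP-glucose and so feeds both GALT and UGDH, did not pass the test but did not overlap between groups. UGP2 was at 124.4, 119.3, 133.2 and 134.9 CPM with miR-101 and at 108.9, 96.6, 117.4 and 80.5 CPM in the control (log2 fold change 0.34 ± 0.123 SE, edgeR adjusted p = 0.128). The lowest miR-101 library was only just above the highest control. UGP2 holds the 7mer-A1 match TACTGTA printed above, and its value was positive.

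The enzymes that act on galactose itself were not called. GALK1, galactokinase, was at 24.8, 31.7, 21.3 and 23.7 CPM with miR-101 and at 22.9, 22.6, 19.1 and 22.4 CPM in the control. These ranges overlap and the highest library was miR-101 replicate 2 (log2 fold change 0.22 ± 0.138 SE, edgeR adjusted p = 0.379). Its locus overlaps ITGB4 on the opposite strand, so its level is uncertain. GALK2, whose product prefers N-acetylgalactosamine, had -0.087 ± 0.125. GALM, the mutarotase that prepares galactose for the kinase, had 0.12 ± 0.125. GALT, the uridylyltransferase of the pathway and by group mean the scarcest of the 32 genes per length, had 0.043 ± 0.22. The phosphoglucomutases PGM1 and PGM2 had log2 fold changes of -0.12 and -0.11. The summed level of the 8 genes was 480.7 to 504.8 CPM with miR-101 and 403.0 to 501.1 CPM in the control, so that the groups overlapped.

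Genes that use or move the sugar nucleotides made beside this pathway were read from 2 further lists. Of 18 tested genes of hexosamine and nucleotide sugar metabolism 1 fell and none rose, against 3.32% and 3.3% of all tested genes. It was SLC35D1, which carries UDP-glucuronate, the product of UGDH, into the endoplasmic reticulum, at 21.7 ± 1.55 CPM in miR-101 libraries against 31.99 ± 4.22 CPM in control libraries (log2 fold change -0.56 ± 0.122 SE, edgeR adjusted p = 0.0208). Of 14 genes of galactosyl transfer and release 2 rose and none fell, against the same shares of all tested genes. B4GALT4 and B4GALT1, which add galactose from UDP-galactose to sugar chains, had log2 fold changes of 0.63 ± 0.0943 and 0.45 ± 0.12 (edgeR adjusted p = 0.00392 and 0.0484); limma-voom called 1 of the 2.

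The upper part of glycolysis, from hexokinase to triose phosphates, held no called gene among 9, against 6.62% of all tested genes. The median log2 fold change of the 9 was -0.14. HK2, the inducible hexokinase that binds to mitochondria, was at 114.2, 116.1, 130.7 and 116.9 CPM with miR-101 and at 173.9, 176.8, 158.5 and 108.4 CPM in the control. All 4 miR-101 libraries were below control replicates 1 to 3, and control replicate 4 was below them all (log2 fold change -0.37 ± 0.148 SE, edgeR adjusted p = 0.169). Without negative control replicate 4 HK2 was called lower, at -0.51 with an edgeR adjusted p of 0.00864. HK1, the hexokinase found in most tissues, had -0.17 ± 0.178.

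The subunits of phosphofructokinase, the committed step of glycolysis, differed little. PFKM, the muscle form, was at 69.8, 74.9, 62.0 and 57.8 CPM with miR-101 and at 72.7, 80.4, 73.6 and 82.6 CPM in the control, lower in 4 of 4 same-numbered pairs though the ranges overlap (log2 fold change -0.23 ± 0.108 SE, edgeR adjusted p = 0.252). PFKP, the platelet form and the most abundant of the 3 per length, had -0.14 ± 0.0909, and PFKL, the liver form, had 0.088 ± 0.182. PFKM overlaps SENP1 on the opposite strand and is uncertain. The isomerase GPI, the aldolases ALDOA and ALDOC and the triose isomerase TPI1 had values between -0.15 and 0.009. In sum the 9 genes reached 1426 to 1788 CPM with miR-101 and 1408 to 1910 CPM in the control.

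The 3 bifunctional enzymes that make and break fructose 2,6-bisphosphate, the strongest activator of phosphofructokinase, were not called. PFKFB3, the form with the highest kinase activity, was at 34.1, 36.2, 43.2 and 36.9 CPM with miR-101 and at 32.3, 36.3, 31.6 and 26.9 CPM in the control (log2 fold change 0.24 ± 0.122 SE, edgeR adjusted p = 0.273). PFKFB2 was at 40.8, 40.6, 31.3 and 33.2 CPM with miR-101 and at 35.6, 39.1, 30.4 and 27.5 CPM in the control, higher in 4 of 4 same-numbered pairs with overlapping ranges (0.14 ± 0.142, edgeR adjusted p = 0.616). PFKFB4 varied most of all 32 genes within each group. It was at 28.8, 28.6, 51.3 and 21.0 CPM with miR-101 and at 53.3, 50.5, 41.0 and 11.95 CPM in the control, so the single highest and lowest of the 8 libraries were both controls (-0.27 ± 0.4, edgeR adjusted p = 0.737).

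The lower part of glycolysis, from GAPDH to pyruvate kinase, held no called gene among 6, against 6.62% of all tested genes. The median log2 fold change of the 6 was -0.054. ENO2, the neuronal enolase, was at 26.4, 27.6, 29.4 and 20.7 CPM with miR-101 and at 43.1, 41.5, 30.0 and 25.8 CPM in the control. It was lower in 4 of 4 same-numbered pairs, with a gap that was wide in pairs 1 and 2 and narrow in pairs 3 and 4 (log2 fold change -0.43 ± 0.18 SE, edgeR adjusted p = 0.187). ENO1, the main enolase and the most abundant of the 32 genes per length, had 0.07 ± 0.138. Per length, ENO2 was 0.00789, 0.00758, 0.00798 and 0.00746 times the level of ENO1 in the miR-101 libraries and 0.0119, 0.0115, 0.0104 and 0.00961 times in the controls. This ratio, which does not depend on how libraries are scaled, was lower in every miR-101 library than in every control, by 0.48 on the log2 scale (two-sided exact permutation p = 0.0286, adjusted 0.157 over 11 ratios). The ranges of the 9 ratios other than this one and SLC2A3 over SLC2A1 overlapped between groups, with adjusted exact permutation p from 0.419 to 0.971.

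PGAM1, phosphoglycerate mutase, was at 82.2, 93.9, 99.7 and 100.6 CPM with miR-101 and at 116.2, 111.5, 111.1 and 96.0 CPM in the control, overlapping through control replicate 4 alone (log2 fold change -0.21 ± 0.105 SE, edgeR adjusted p = 0.274). GAPDH, which oxidises glyceraldehyde 3-phosphate and is often used as a reference gene, had -0.18 ± 0.138 SE with an edgeR adjusted p of 0.484. PGK1 and PKM, the kinases of the pathway that make ATP, had 0.13 ± 0.217 and 0.12 ± 0.148. Reads of several of these genes can be shared with pseudogenes, of which GENCODE 29 names 62 for GAPDH, 13 for PGAM1, 6 for LDHA and 5 for PKM. ENO2, GALT, PGK1 and PFKFB4 overlap a counted gene on their own strand (LRRC23, IL11RA, ATP7A and UCN2), and GALK2, PGM1, TPI1, PGK1, ENO1, SLC16A1, SLC2A1 and PFKFB2 overlap one on the opposite strand, so these levels are uncertain.

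The lactate end of the pathway was not called either. LDHA, the subunit that favours lactate formation, was at 1345, 1414, 1721 and 1687 CPM with miR-101 and at 1674, 1232, 1890 and 634.6 CPM in the control. The control range enclosed all 4 miR-101 values (log2 fold change 0.18 ± 0.269 SE, edgeR adjusted p = 0.734), and without negative control replicate 4 the value was -0.052. LDHB, the subunit that favours pyruvate, was at 815.1, 857.0, 980.1 and 1041 CPM with miR-101 and at 866.5, 864.7, 1047 and 890.1 CPM in the control (0.01 ± 0.115, edgeR adjusted p = 0.975).

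SLC16A3 encodes MCT4, the lactate exporter of glycolytic cells. It was at 20.87, 20.04, 18.21 and 14.1 CPM with miR-101 and at 25.8, 28.9, 16.5 and 26.3 CPM in the control. All miR-101 libraries were below control replicates 1, 2 and 4, and control replicate 3 lay among them (log2 fold change -0.41 ± 0.185 SE, edgeR adjusted p = 0.217). Without negative control replicate 3 it was called lower (-0.57, edgeR adjusted p = 0.0429). The gene overlaps CSNK1D on the opposite strand and is uncertain. SLC16A1, which encodes MCT1 and carries lactate both ways, was at 153.5, 160.1, 208.4 and 227.8 CPM with miR-101 and at 183.5, 168.2, 225.4 and 190.2 CPM in the control, with a log2 fold change of -0.033 ± 0.148 SE and an edgeR adjusted p of 0.924.

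Of the further listed genes tested in these pathways, none of 2 in upper glycolysis, 3 in lower glycolysis, 1 for fructose 2,6-bisphosphate (TIGAR), 3 in lactate transport and 11 in the pentose phosphate pathway was called by edgeR. The share called over all tested genes was 6.62%. At an unadjusted edgeR p under 0.05 the numbers were 1, 1, 0, 0 and 2, against 22.3% of all tested genes. DESeq2 called 2 of the pentose phosphate genes, against 1706 of all 15905 tested genes, and limma-voom called none of them.

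Levels per kb of exon spanned from 1.91 CPM per kb for GALT to 785.2 CPM per kb for ENO1 with miR-101, and from 1.85 to 747.9 in the control for the same genes. The 3 most abundant transcripts per length were ENO1, GAPDH and PKM by mean in both groups, with the libraries of ENO1 and GAPDH, and of PKM and LDHB, overlapping. The 32 genes took 1.34% to 1.84% of all counts with miR-101 and 1.30% to 1.78% in the control, so the pathway's share of the library overlapped between groups. SLC2A3 averaged 68.6 ± 15.4 CPM per kb with miR-101, above the other sugar and lactate transporters, and 17.3 ± 8.13 CPM per kb in the control, below SLC2A1 at 41.1 ± 1.97 (SD, n = 4 each).

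**Figure D3:**
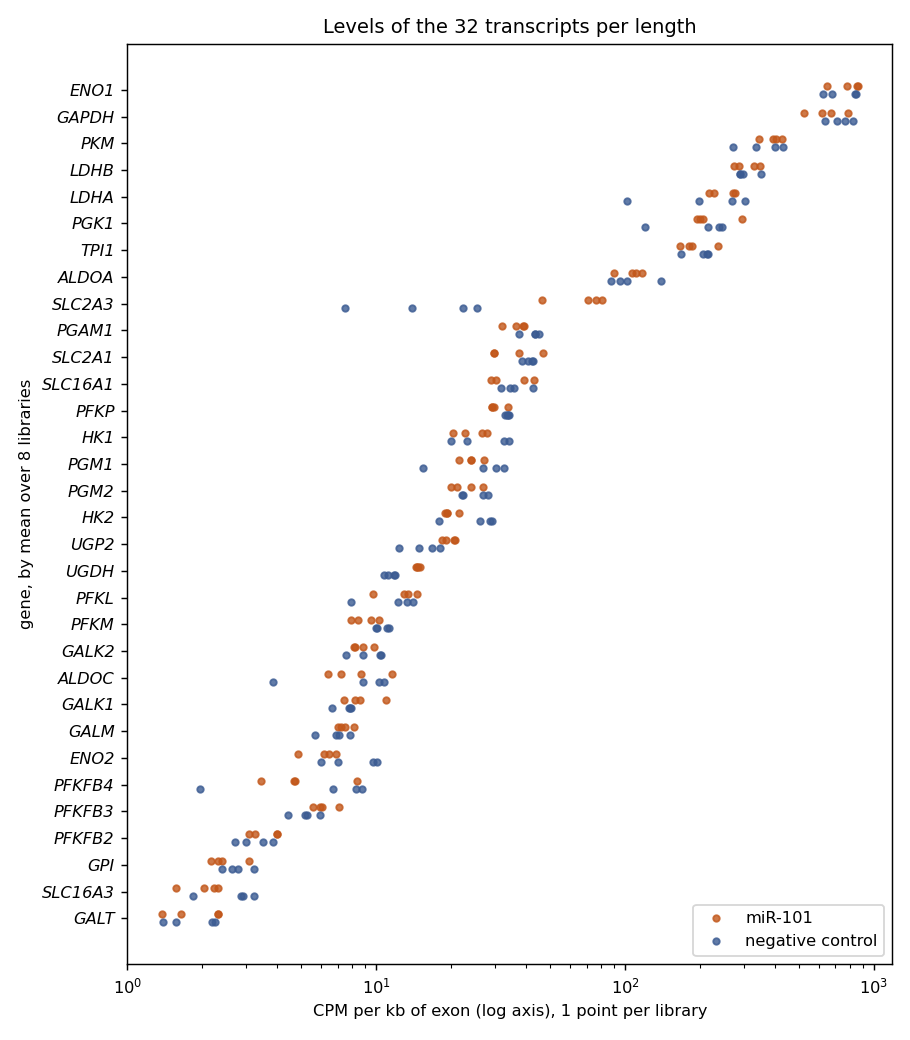
Level of each of the 32 transcripts per kb of exon (CPM per kb, log axis), with 1 point per library, miR-101 above negative control in each row. SLC2A3 is apart between groups, at 68.6 on average with miR-101 and 17.3 in the control, while most other rows overlap.

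Replicates 1 and 2 and replicates 3 and 4 were also read apart, because these sets differed in the spread of the genes described. In replicates 1 and 2 alone the median log2 fold change of the 32 genes was -0.14 and 24 of them were negative, while in replicates 3 and 4 alone it was 0.13 and 12 were negative. The medians over all tested genes were 0.004 and -0.016. In replicates 1 and 2 alone 12 of the 32 genes were called lower, namely HK2, ENO2, SLC16A3, PGAM1, PFKP, SLC2A1, GAPDH, HK1, PFKFB4, PGM1, TPI1 and ALDOC, against 16.4% of all tested genes. SLC2A3, UGDH, UGP2 and GALK1 were called higher there, 4 of the 32 against 16% of all tested genes. In each group replicates 1 and 2 differed least of all libraries. The p-values of this set therefore rest on less spread than the 4 libraries of a group show. In replicates 3 and 4 alone none of the 32 was called by edgeR (1 had an unadjusted p under 0.05), against 0.0379% of all tested genes.

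The difference between these effects was tested as an interaction of group and replicate set. No member was called by edgeR or DESeq2, against 0% of all tested genes in edgeR and 2 genes in DESeq2, and at an unadjusted p under 0.05 edgeR had 0 of the 32 and 2.16% of all tested genes. The effect was the more positive in replicates 3 and 4 for 27 of the 32 genes, with a median difference of 0.28 on the log2 scale, against 47.5% of all tested genes and a median of -0.015. PFKFB4 differed most, with a log2 fold change of -0.86 in replicates 1 and 2 and 0.46 in replicates 3 and 4 (difference 1.31 ± 0.742 SE, edgeR adjusted p = 1). SLC2A3 had 1.62 and 2.57 (difference 0.95 ± 0.437 SE, edgeR adjusted p = 1). Without negative control replicate 3, replicate 4 was the only control left in its set, and the median difference over the 32 genes was 0.38. Without negative control replicate 4, replicate 3 was the only control left there, and the median was 0.18. With 1 control in a set, the fit cannot tell the replicate set from that library. Replicate sets follow the replicate numbers and are not labelled as batches.

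**Figure D4:**
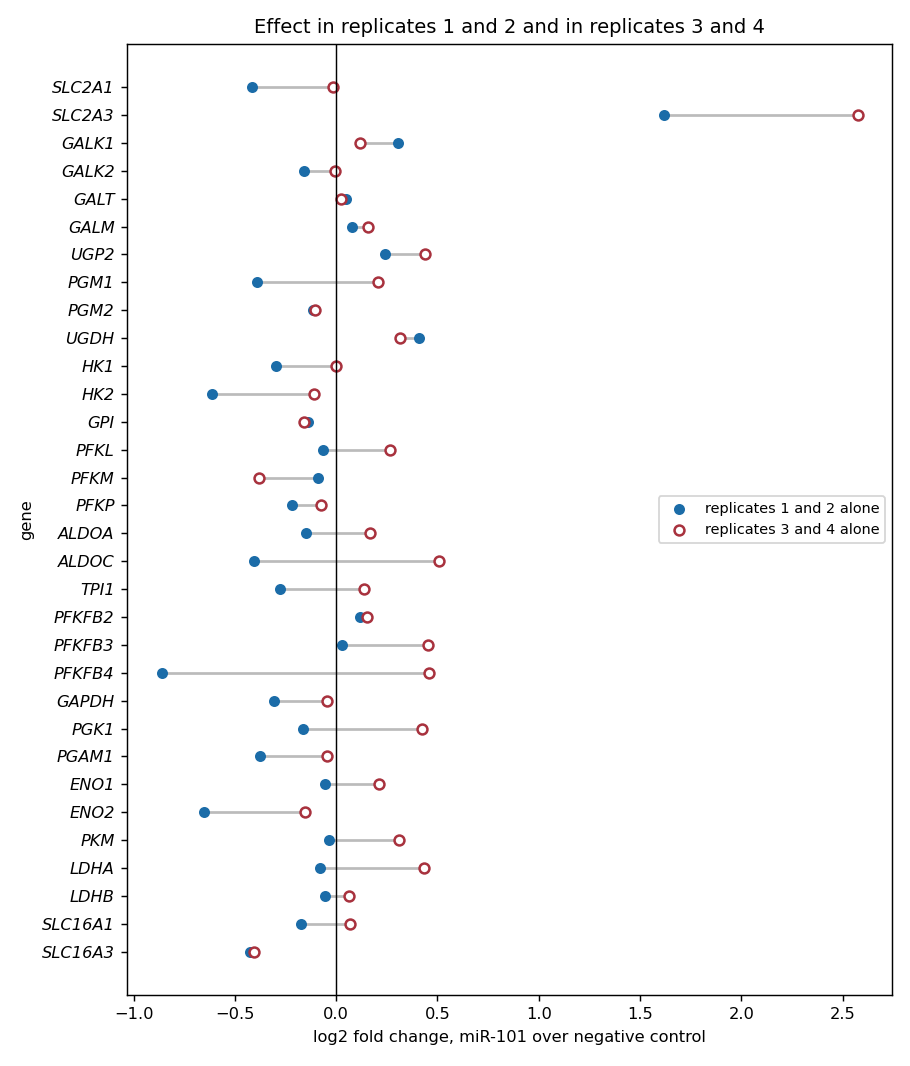
Log2 fold change of each gene, miR-101 over negative control, in replicates 1 and 2 alone (filled) and in replicates 3 and 4 alone (open), joined by a grey line. PFKFB4 has the longest line, between -0.86 and 0.46, and SLC2A3 is positive in both sets.

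Negative control replicate 4 held the lowest of the 8 values for 15 of the 32 genes (46.9%), against 22.2% of all tested genes. For 6 genes it lay at least 0.9 below the mean of control replicates 1 to 3 on the log2 scale, namely PFKFB4 (-2.01), SLC2A3 (-1.45), ALDOC (-1.38), LDHA (-1.33), PGM1 (-0.95) and PGK1 (-0.95). PGK1 was at 1102, 1135, 1621 and 1072 CPM with miR-101 and at 1314, 1183, 1345 and 663.5 CPM in the control. ALDOC was at 21.1, 25.4, 33.8 and 18.7 CPM with miR-101 and at 31.5, 30.0, 25.9 and 11.2 CPM in the control. In both genes miR-101 replicate 3 was the highest library and control replicate 4 the lowest. PGM1 was at 100.8, 101.2, 114.6 and 90.5 CPM with miR-101 and at 136.9, 127.1, 112.8 and 64.9 CPM in the control, so that its control libraries enclosed the miR-101 libraries. HIF1A, the hypoxia-inducible transcription factor that is known to activate many glycolytic genes, was at 531.7, 509.5, 441.9 and 491.5 CPM with miR-101. In the control it was at 528.4, 535.6, 454.1 and 419.0 CPM, lowest in replicate 4 by a smaller margin. Among the miR-101 libraries HIF1A was lowest in replicate 3, where PGK1 and ALDOC were highest. Its protein was not measured, and its part in these levels was not tested. What set control replicate 4 apart was not tested either.

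**Figure D5:**
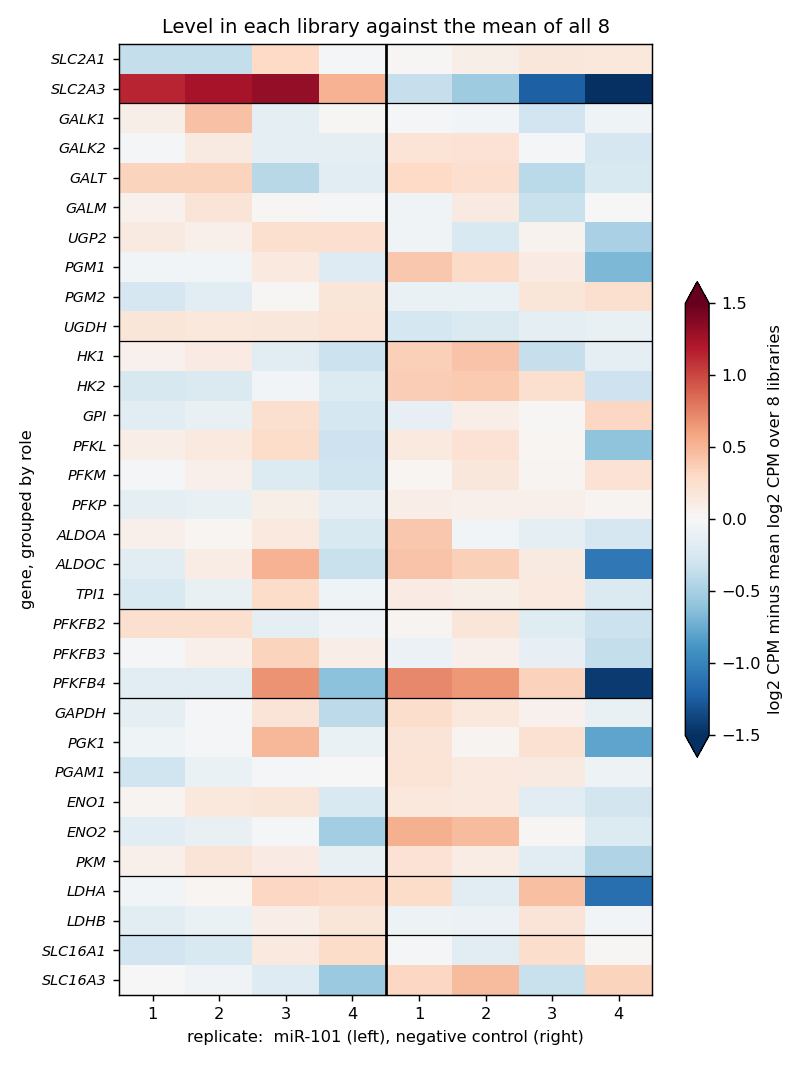
Level of each gene in each library as log2 CPM minus the mean over all 8 libraries (colour scale), miR-101 replicates left and negative control replicates right, genes grouped by role. SLC2A3 is high in every miR-101 library, and negative control replicate 4 is low in PFKFB4, ALDOC, LDHA, PGM1 and PGK1.

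The promoters of 4 genes are printed, LDHA, PGK1 and ALDOC from the 6 genes low in control replicate 4, and UGDH because it was called. This choice was made after the values were seen. PFKFB4 and PGM1, also among those 6, are not printed and held fewer of the matches marked below. Each printed promoter runs from 250 bases before to 50 after the start in RefSeq (GRCh38.p14), on the gene's strand. Capitals mark ACGTG and GCGTG, the core of the hypoxia response element, on either strand; the palindrome CACGTG, also the core of the E-box, holds ACGTG on both strands and counts as 2. Such a match lay in 21 of the 29 members with a promoter in the table and in 63.4% of the promoters of tested genes, and 2 or more in 11 of the 29 and in 33.9%. SLC2A3, SLC16A1 and PFKFB2 had no entry and were not searched.
LDHA, chr11:18394313-18394612, plus strand: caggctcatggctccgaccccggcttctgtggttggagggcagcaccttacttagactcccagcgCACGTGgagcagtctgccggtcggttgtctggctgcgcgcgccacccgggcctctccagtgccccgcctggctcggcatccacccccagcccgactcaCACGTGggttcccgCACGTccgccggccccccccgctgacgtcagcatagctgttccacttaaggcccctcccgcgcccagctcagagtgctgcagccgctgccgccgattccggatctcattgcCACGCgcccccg
PGK1, chrX:78103998-78104297, plus strand: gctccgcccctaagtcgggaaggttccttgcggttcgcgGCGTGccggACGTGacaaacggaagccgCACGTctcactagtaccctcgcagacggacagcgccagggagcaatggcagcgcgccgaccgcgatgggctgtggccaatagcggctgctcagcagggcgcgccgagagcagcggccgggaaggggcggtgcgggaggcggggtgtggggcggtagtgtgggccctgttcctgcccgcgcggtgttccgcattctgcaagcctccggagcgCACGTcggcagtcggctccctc
ALDOC, chr17:28576846-28577145, minus strand: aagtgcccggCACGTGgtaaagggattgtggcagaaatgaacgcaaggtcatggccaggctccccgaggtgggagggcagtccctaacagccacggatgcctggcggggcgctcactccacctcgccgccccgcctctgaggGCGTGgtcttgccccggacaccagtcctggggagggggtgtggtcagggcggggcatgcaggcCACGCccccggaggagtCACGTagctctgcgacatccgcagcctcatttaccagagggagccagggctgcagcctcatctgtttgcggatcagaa
UGDH, chr4:39527390-39527689, minus strand: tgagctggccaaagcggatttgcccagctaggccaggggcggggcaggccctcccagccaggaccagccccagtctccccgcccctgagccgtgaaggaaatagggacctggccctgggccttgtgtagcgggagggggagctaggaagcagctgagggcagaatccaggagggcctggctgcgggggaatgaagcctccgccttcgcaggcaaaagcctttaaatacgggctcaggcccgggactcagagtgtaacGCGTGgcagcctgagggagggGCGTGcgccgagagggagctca

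LDHA held 6 matches, ALDOC 5, PGK1 4 and UGDH 2. PFKFB4, the gene lowest in control replicate 4 relative to the other controls, held 1, and PGM1 held 0 in this window. Nothing about the binding of a factor can be read from these letters.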

How the data were processed

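Total RNA of 8 cultures was sequenced after ribosomal RNA removal, per the labels' protocols. The authors deposited whole-number read counts per gene symbol for 15982 genes, not normalised. The build hg38 and the tools TopHat2 2.0.14, StringTie 1.2.4 and bcl2fastq 2.18.0.12 are listed, per the submitters' processing notes; the counter, its annotation and its strand setting: not given in the sources used here. Overlapping genes are therefore given as uncertain.

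The tests used edgeR 4.0.16 (R 4.3.3; filterByExpr, TMM factors, glmQLFit and glmQLFTest, group as the only term), with Benjamini-Hochberg adjustment over all 15905 genes tested. For CPM, counts were divided by library size times TMM factor; levels per kb divide them by the union of a gene's exons in GENCODE 29, which matched 14077 of the 15982 symbols. Positive fold changes mean higher with miR-101, and errors are SE for fold changes and SD for levels. Counts carry sampling error, and totals of 17603054 to 20160267 make it small beside the spread between libraries. DESeq2 1.42.0, limma-voom 3.58.1, other scalings and filters, a replicate block, each library left out, replicate sets alone, and replicates 1 and 2 summed were the alternatives. The fits were also run on simulated counts with the same spread between libraries for every gene and no closeness of replicates 1 and 2. That setting is simpler than these data.

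The labels describe 4 independent transfection experiments. Over genes, the deviations of same-numbered libraries from their group means correlated at 0.33, 0.43, 0.19 and 0.21. Every value was above 0.1, the minimum set for taking the numbers to pair the libraries. The main edgeR fit and the main exact permutation tests left this pairing out, and the replicate block took it in. Differently numbered libraries correlated at -0.45 to 0.39; miR-101 replicates 1 and 4 were closer to control replicates 2 (0.37) and 3 (0.39) than to their own number. No 2 libraries agreed within sampling noise, though replicates 1 and 2 of each group differed least (chi-square per degree of freedom 3.82 with miR-101 and 4.73 in the control, 14.5 to 70.9 for other libraries of a group).

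Values in every library are given for members called by group, with the block or in the interaction and otherwise for the 2 smallest p-values per role; of each other list, up to 4 called genes with the smallest p were to be named. PGM1, PGK1, ALDOC, PFKFB4, HIF1A, GSK3B, GYS1, SLC2A3P2, PRKAA2 and the markers were named after their values were seen. The 32 genes, lists, replicate sets and tests were chosen with earlier results of these data known.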

Additional observations from a re-analysis of the deposited data

Results flagged for a closer look

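In each of 66 groups of 4 libraries (the 32 genes and EZH2 in each treatment), the gap between the highest or lowest library and its nearest neighbour was compared with the group's whole range. It was large enough to stand apart at the 95% level of Dixon's test in 5 groups; chance gives about 1 in 20. Of the 5, 3 were miR-101 replicate 3 as the highest of its group. PGK1 was at 1621 CPM there, with 1135 CPM in the next library. PFKP was at 163.8 CPM, with 143.1 CPM next. HK2 was at 130.7 CPM, with 116.9 CPM next. The other two lay in negative control replicate 3. LDHB was at 1047 CPM there, with 890.1 CPM next below. GALK1 was lowest at 19.1 CPM, with 22.4 CPM next above. None of these 5 genes was called in the comparison of the groups over all 8 libraries.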

How the results depend on the processing

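SLC2A3 and UGDH were the members called higher under DESeq2 size factors, no filter, a stricter filter, DESeq2, limma-voom and the replicate block (log2 fold change 2.10 for SLC2A3 and 0.36 for UGDH with the block, which changed no call of a member). With library totals alone 1 was called higher, with replicates 1 and 2 alone 4, with replicates 3 and 4 alone 0, and with replicates 1 and 2 summed 1. Leaving out 1 library gave 1 to 2 called higher. Over all genes the count was 1053 in all 8 libraries, 1676 with the replicate block, 1706 by DESeq2, 173 with replicates 1 and 2 summed and 488 to 1419 without 1 library. The number called lower was 12 in replicates 1 and 2 alone and 0 to 1 without 1 library, and 0 elsewhere. The interaction called 0 members, and 0 to 4 without 1 library. EZH2 kept its direction in all fits and lost its call in replicates 3 and 4 alone (log2 fold change -0.59, edgeR adjusted p = 0.565) and with replicates 1 and 2 summed (-0.67, 0.0809). No ratio of related genes was called; without 1 library, in pairs or with replicates 1 and 2 summed the smallest exact p (0.0571, 0.125 and 0.1) cannot pass.

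Signs turned in several values that were not called over all 8 libraries. PGM1, ALDOC, TPI1 and PFKFB4, called lower in replicates 1 and 2 alone, were 0.21, 0.51, 0.14 and 0.46 in replicates 3 and 4 alone. The other members called lower in replicates 1 and 2 alone stayed negative there. LDHA was -0.080 and LDHB -0.056 in replicates 1 and 2 alone, and SLC16A1 0.071 in replicates 3 and 4 alone and 0.0037 with replicates 1 and 2 summed. Without 1 library LDHA ranged from -0.052 to 0.38, LDHB from -0.060 to 0.075, SLC16A1 from -0.15 to 0.051, and the log2 differences in ratio from -0.21 to 0.26 for PGM2 over PGM1, -0.20 to 0.20 for ALDOC over ALDOA and -0.45 to 0.032 for LDHB over LDHA. The cause was not tested. The depth limits the scarcest genes, such as GALT with 99 to 204 counts.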

Other observations

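Genes of glycogen metabolism, which branches from glucose 1-phosphate beside the Leloir pathway, were read from a fixed list of which 20 were tested: 3 rose and 2 fell, against 3.3% and 3.32% of all tested genes. The phosphorylases PYGL and PYGB, which release glucose 1-phosphate from glycogen, went opposite ways. PYGL, the liver form, was at 316.1, 318.3, 312.9 and 391.6 CPM with miR-101 and at 188.8, 156.1, 204.4 and 143.9 CPM in the control (log2 fold change 0.95 ± 0.134 SE, edgeR adjusted p = 0.00287). PYGB, the brain form, was at 103.7, 108.6, 99.5 and 83.9 CPM with miR-101 and at 170.6, 175.6, 144.1 and 181.3 CPM in the control (-0.76 ± 0.115, edgeR adjusted p = 0.00401). The groups were apart for both. PPP1R3B and PPP1R3C, which bring protein phosphatase 1 to glycogen and so favour its synthesis, rose by 1.15 ± 0.22 and 1.00 ± 0.166 on the log2 scale (edgeR adjusted p = 0.0122 and 0.00635). GSK3B, a kinase that inhibits glycogen synthase among many other substrates, fell by 0.55 ± 0.13 (edgeR adjusted p = 0.0298). GYS1, which encodes glycogen synthase, was not called and its value was negative (log2 fold change -0.40 ± 0.149 SE, edgeR adjusted p = 0.146).

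Among 15 genes of glucose sensing and glycolytic transcription, 1 rose and 1 fell, against 3.3% and 3.32% of all tested genes. ARRDC4, an arrestin-domain gene induced by glucose and related to TXNIP, was at 6.44, 5.30, 5.43 and 4.98 CPM with miR-101 and at 2.64, 2.82, 2.42 and 2.29 CPM in the control (log2 fold change 1.12 ± 0.16 SE, edgeR adjusted p = 0.00309), while TXNIP had 0.13 ± 0.204 (edgeR adjusted p = 0.752). PRKAA1, the alpha 1 catalytic subunit of the energy sensor AMPK, fell by 0.76 ± 0.129 (edgeR adjusted p = 0.00661). PRKAA2, the alpha 2 subunit, averaged 84.9 ± 12.1 CPM in miR-101 libraries against 61.8 ± 13.5 CPM in control libraries (log2 fold change 0.46 ± 0.165 SE, edgeR adjusted p = 0.129), and was called higher with the replicate block (0.475, edgeR adjusted p = 0.043).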
